A study of Gossypium hirsutum with 6 samples.

Results

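The 200 gene models described here were shared by the ovule and the fiber of cotton and were low in its leaf. They came from strand-specific mRNA-seq of the allotetraploid *Gossypium hirsutum* acc. TM-1, with no treatment or transgene in any group. Young leaves, ovules taken on the day of flowering (0 DPA, days post anthesis) and fibers at 14 DPA were sequenced as 2 biological replicates each, which gave 6 libraries. Values were deposited as FPKM, the fragments per kilobase of model scaled to each library's total. The ovule and the fiber differ in both tissue and stage, and these cannot be told apart here.

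Members were chosen by their own levels. A model had to reach 5 FPKM in each of the 4 ovule and fiber libraries, and its fiber mean had to lie between 0.5 and 2 times its ovule mean. Of the 77357 models in the table, 6353 met these conditions. They were ranked by the lower of the ovule and fiber means plus 1, divided by the leaf mean plus 1, and the 200 highest were taken. The leaf, ovule and fiber levels and all 3 contrasts between them were therefore used in the choice, and they are given as a description.

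Cotton fibers are single cells that grow out of the outer layer of the ovule around the day of flowering. They first elongate and then lay down a thick cellulose wall, while the rest of the ovule becomes the seed. Ovules were taken on the day of flowering, and the study describes no removal of their outer layer. The ovule libraries can therefore include the cells that grow into fibers, and they are not a separate part of the seed. The fiber libraries came from fibers dissected from older bolls. The young leaf is a photosynthetic vegetative organ. In bulk tissue, fewer cells of a type and less RNA per cell cannot be told apart. Models are called A-genome or D-genome only from the start of their identifiers, Cotton_A for the first and Gorai for the second. None of the identifiers was paired with a gene name in the sources used here, so no role is given to any model and no tissue marker could be looked up.

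Together the members took 2.39% ± 0.184 (SD, n = 2) of the summed FPKM of the ovule libraries and 2.58% ± 0.0616 (SD, n = 2) of the fiber libraries. In leaf they took 0.113% ± 0.00774 (SD, n = 2). The median member had a mean of 38.8 FPKM in ovule, 38.3 FPKM in fiber and 1.29 FPKM in leaf. Ovule means ran from 6.99 to 1130 FPKM, fiber means from 6.66 to 1575 FPKM and leaf means from 0 to 120 FPKM. By the lower of its ovule and fiber means, a member was most often moderate, with 59 members at 5 to 20 FPKM, 102 at 20 to 100, 28 at 100 to 500 and 11 at 500 or more. The 10 highest members held between 38.0% and 42.3% of the members' FPKM in each ovule and fiber library.

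**Figure D1:**
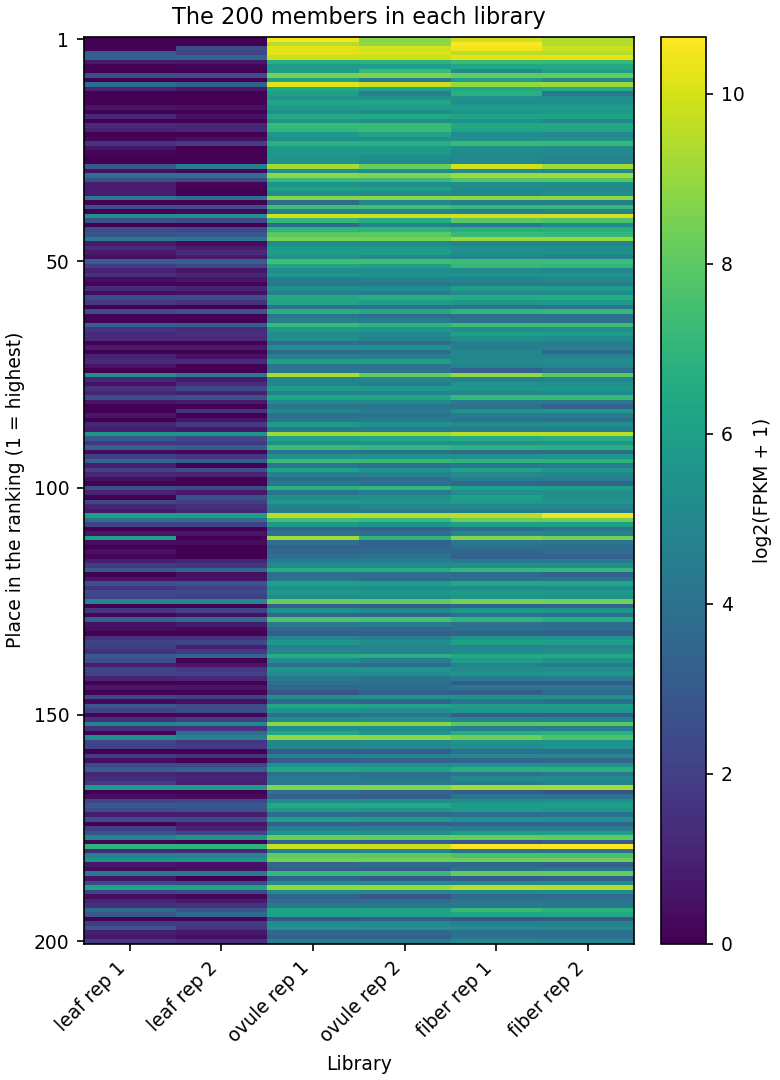
Level of each of the 200 members, one row per member in the order of the ranking, in each of the 6 libraries, as log2(FPKM + 1) by colour. The leaf columns are darker than the ovule and fiber columns in every row, though 22 members had a leaf mean of 10 FPKM or more. The bright rows, which are the most abundant members, are scattered through the ranking rather than confined to its top.

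The top of the ranking held very abundant models whose leaf values were low relative to their ovule and fiber values. Cotton_A_21869, in place 3 of the ranking, had 0 and 4.05 FPKM in the leaf libraries, 1202 and 975 FPKM in ovule and 1357 and 892 FPKM in fiber. Cotton_A_29157 followed with 7.70 and 3.55 FPKM in leaf, 1157 and 1103 FPKM in ovule and 749 and 720 FPKM in fiber. Gorai.004G235700 had 9.06 and 9.56 FPKM in leaf, 887 and 889 FPKM in ovule and 1186 and 1185 FPKM in fiber. In all 3 models each ovule and fiber library lay far above both leaf libraries. The mean of Gorai.004G235700 was 95.4 times the leaf mean in ovule and 127 times in fiber, and its replicates differed by less than any gap between tissues.

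Lower in abundance, 3 D-genome models on chromosome code 9 (the number after Gorai) stood in the same top group. Gorai.009G288000 had 0.641 and 0.615 FPKM in leaf, 103 and 111 FPKM in ovule and 144 and 142 FPKM in fiber. Gorai.009G265100 had 0 and 0.114 FPKM in leaf, 58.7 and 60.4 FPKM in ovule and 82.3 and 86.0 FPKM in fiber. Gorai.009G400800 had 5.05 and 4.61 FPKM in leaf, 366 and 388 FPKM in ovule and 277 and 284 FPKM in fiber. Fiber was above ovule in both libraries for the first 2 of these models and below it for Gorai.009G400800.

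The other top places were taken by models listed at 0 in both leaf libraries. Gorai.005G149200, the highest in the ranking, had 1483 and 435 FPKM in ovule and 965 and 667 FPKM in fiber. Cotton_A_15019, the second, had 710 and 483 FPKM in ovule and 1626 and 686 FPKM in fiber. Both had replicates that differed widely, and the ovule and fiber libraries overlapped. Cotton_A_05089 had 58.0 and 146 FPKM in ovule and 36.0 and 67.2 FPKM in fiber, and Cotton_A_36932 had 69.0 and 20.2 FPKM in ovule and 59.8 and 31.0 FPKM in fiber. Their replicates also spread by over 1.5-fold in each tissue.

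**Figure D2:**
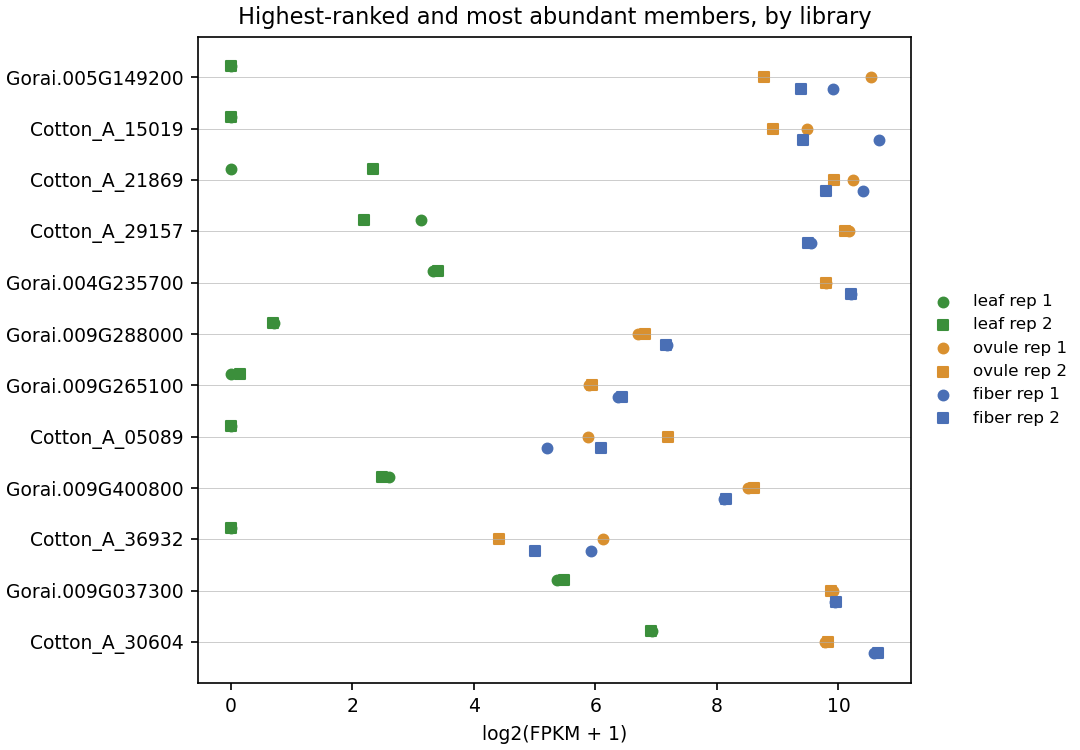
Levels in each library, as log2(FPKM + 1), of the 10 members highest in the ranking (top 10 rows, in order) and of the 2 further members among the 5 most abundant (bottom rows), with circles for replicate 1 and squares for replicate 2. The leaf points lie to the left of all ovule and fiber points in every row, and replicates of Gorai.004G235700 coincide while those of Cotton_A_36932 do not.

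Some of the most abundant members were also measured well above 0 in leaf. Gorai.009G037300 had 40.3 and 43.6 FPKM in leaf, 964 and 936 FPKM in ovule and 984 and 1000 FPKM in fiber. Cotton_A_30604, the member with the highest leaf mean, had 121 and 119 FPKM in leaf, 872 and 905 FPKM in ovule and 1537 and 1612 FPKM in fiber. Gorai.003G044700 had 69.2 and 70.8 FPKM in leaf, 494 and 511 FPKM in ovule and 719 and 729 FPKM in fiber. These members were low in leaf only relative to their own levels in ovule and fiber, and their replicates lay close together in every tissue. Cotton_A_23230, the other member with a leaf mean over 60 FPKM, had 66.1 and 64.0 FPKM in leaf, 752 and 693 FPKM in ovule and 745 and 1353 FPKM in fiber. Its values rested on few reads, as recovered from the steps between FPKM values, with 1 in each leaf library, 14 and 11 in ovule and 16 and 28 in fiber.

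The members were also grouped by their leaf level. In both leaf libraries 28 members were listed at 0, another 26 were at 0 in 1 leaf library, and 146 were above 0 in both. The leaf mean was above 0 and under 1 FPKM in 60 members, 1 to 5 FPKM in 69 and 5 FPKM or more in 43. Among the 172 members with a leaf mean above 0, the median ovule mean was 21.9 times and the median fiber mean 23.8 times the leaf mean, and the lowest ratios were 7.18 and 7.42. The median of the lower of the ovule and fiber means was 14.3 FPKM in the members listed at 0 in leaf and 160 FPKM in those with a leaf mean of 5 FPKM or more. The ranking sets this order, since the value of the last member needs 5.75 FPKM at a leaf mean of 0 and 39.5 FPKM at a leaf mean of 5.

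The rule's threshold cut through a continuous ranking. The last members taken, Gorai.003G116000, Gorai.003G132400 and Gorai.013G046900, had ranking values of 6.85, 6.84 and 6.75. The first models left out, Cotton_A_35575, Cotton_A_05165 and Cotton_A_14263, had ranking values of 6.72 in each case. Gorai.013G046900, the last member, had 2.55 and 1.82 FPKM in leaf, 21.8 and 19.3 FPKM in ovule and 29.4 and 27.8 FPKM in fiber. Cotton_A_35575, just outside, had 4.27 and 6.62 FPKM in leaf, 85.4 and 61.9 FPKM in ovule and 42.2 and 42.5 FPKM in fiber. The median ranking value was 11.3 over the members and 1.43 over the 6153 models that met the conditions but were not taken.

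Differences between tissues were fitted with limma on log2(FPKM + 1) over all 42214 models with a mean of at least 0.5 FPKM. Models were called where the change exceeded 2-fold with a p, adjusted by Benjamini-Hochberg, under 0.01. In the comparison of ovule with leaf (OL), 197 members were called higher in ovule, beside 31.1% of all models tested. In that of fiber with leaf (FL), 198 were called higher in fiber, beside 25.6%. Both calls were made for 197 members, beside 10.6% of all models. The rule used these contrasts, so nothing is read from those counts. The median difference on this scale was 3.71 in OL and 3.80 in FL over the members, and 0.48 and 0.04 over all models tested. With 2 libraries per tissue the p-values measure the spread between these libraries, and the smallest p that an exact permutation test (two-sided) could give is 0.333.

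The 3 members not called in OL each had 1 leaf library listed at 0 and the other above 0. Cotton_A_06990 had 66.1 and 0 FPKM in leaf, 591 and 126 FPKM in ovule and 419 and 338 FPKM in fiber, with limma adjusted p = 0.071 in OL and 0.0547 in FL. Its leaf value of 66.1 FPKM was 1 read. Cotton_A_23750 had 0 and 13.6 FPKM in leaf, 79.9 and 46.8 FPKM in ovule and 99.0 and 113 FPKM in fiber, with limma adjusted p = 0.0315 in OL and 0.0169 in FL. Cotton_A_25226 had 4.78 and 0 FPKM in leaf, 34.9 and 22.7 FPKM in ovule and 60.6 and 41.9 FPKM in fiber, and missed the threshold in OL only (limma adjusted p = 0.0116). In each of these models all 4 ovule and fiber libraries still lay above both leaf libraries, as they did in all 200 members, beside 33.7% of all models tested.

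The balance of fiber and ovule varied among members within the bounds of the rule. The ratio of fiber to ovule mean (F/O) had a median of 1.10, quartiles of 0.784 and 1.38 and a range from 0.505 to 1.99. The ratio was from 0.75 to 1.33 in 103 members, lower in 41 and higher in 56. Both fiber libraries lay above both ovule libraries in 92 members, the reverse held in 63, and the libraries overlapped in 45. The shares of all models tested or of the models not taken with such a split are not given. The split is therefore not read as a trait of the members. In the comparison of fiber with ovule (FO), no member was called in either direction, beside 16.8% of all models called higher and 33.5% called lower, since the rule bounds this ratio. Without the demand on size, the same limma fit put 36 members higher in fiber at an adjusted p under 0.01, beside 23.7% of all models tested and 20.5% of the models that met the conditions but were not taken. It put 25 lower in fiber, beside 44.0% and 24.3%. At an unadjusted p under 0.05 there were 58 members higher, beside 28.2% of all models tested and 29.6% of those not taken, and 42 lower, beside 50.7% and 34.5%. The rule bounds this contrast, so nothing is read from these counts.

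Several members had nearly the same level in ovule and fiber. Gorai.004G272100 had 3.51 and 4.23 FPKM in leaf, 33.3 and 33.6 FPKM in ovule and 33.1 and 33.9 FPKM in fiber. Gorai.007G336900 had 4.01 and 3.06 FPKM in leaf, 51.8 and 46.6 FPKM in ovule and 50.3 and 48.1 FPKM in fiber. Cotton_A_11324 had 0.740 and 0 FPKM in leaf, 36.1 and 31.0 FPKM in ovule and 29.2 and 37.9 FPKM in fiber. In these 3 models the ovule and fiber libraries overlapped, and the 4 values of Gorai.004G272100 lay within 1 FPKM of one another.

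At the ends of the range, the sides were clearly apart for some models and not for others. Cotton_A_27349, at the ovule end, had 1.46 and 1.62 FPKM in leaf, 67.6 and 65.0 FPKM in ovule and 32.7 and 34.3 FPKM in fiber. At the fiber end, Gorai.007G213400 was listed at 0 in leaf and had 6.67 and 7.31 FPKM in ovule and 13.8 and 14.1 FPKM in fiber. Cotton_A_28955 had 5.02 and 4.05 FPKM in leaf, 132 and 94.0 FPKM in ovule and 237 and 207 FPKM in fiber. These 3 models had no overlap between ovule and fiber, whereas Cotton_A_05089, with the second lowest ratio of 0.506, had overlapping libraries.

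**Figure D3:**
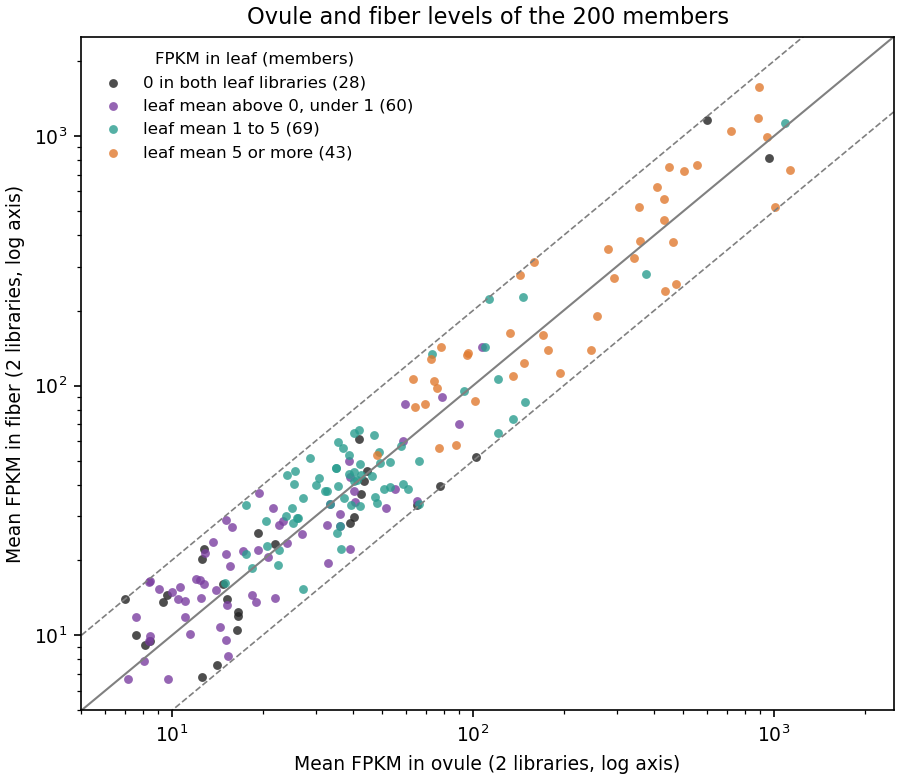
Mean FPKM in ovule against mean FPKM in fiber for the 200 members, on log axes, coloured by leaf mean, with a solid line where both are equal and dashed lines at the rule's bounds of 0.5 and 2. Members with a leaf mean of 5 FPKM or more lie toward the upper right, as the ranking requires, and members with little leaf signal lie mostly under 100 FPKM, with a few exceptions such as Cotton_A_15019.

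Fiber was above ovule in 117 members (58.5%), compared with 47.0% of the models that met the conditions but were not taken. By prefix, the share was 68.2% of the 88 D-genome members and 50.9% of the 112 A-genome members, beside 46.9% and 47.1% of the models not taken. This balance depended on the scaling. After scaling the libraries by the median of ratios, fiber was above ovule in 169 members (84.5%) and in 74.9% of the models not taken. After quantile normalization it was above in 136 members (68.0%) and in 66.9% of those not taken, so the shares were then nearly the same. The shares by prefix became 87.5% and 82.1% with the first scaling and 75.0% and 62.5% with the second, beside 76.0% and 73.7% of the D-genome and A-genome models not taken with the first and 68.2% and 65.5% with the second. D-genome members had the higher share under each scaling, A-genome members fell below the A-genome models not taken after quantile normalization, and the difference between the prefixes was not tested. The median OL difference of all models moved from 0.48 to 0.01 with the median of ratios and to 0.14 with quantile normalization, and that of the members from 3.71 to 3.19 and 3.47.

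Of the 200 members, 56.0% had the A-genome prefix, beside 49.2% of the models that met the conditions but were not taken and 48.8% of all models tested. The same rule was also applied with the tissues exchanged, which gave 200 models shared by leaf and ovule and low in fiber, and 200 shared by leaf and fiber and low in ovule. These sets had A-genome shares of 60.5% and 58.0%. The A-genome share of the members was thus between that of the models not taken and those of the exchanged sets. No member was in either set. Among the members, 22 A-genome and 3 D-genome models had over 1 FPKM per recovered read, a class described below. Reads were recovered for 112 A-genome and 37 D-genome members. The A-genome share without this class is not given, so prefix and read support were not separated here.

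The exchanged rules also put the size of the pattern in context. At or above the ranking value of the last member stood 381 models shared by leaf and ovule and 41 shared by leaf and fiber, beside the 200 members. They came from 6516, 5042 and 6353 models that met the respective conditions. The median ranking value was 13.3 in the first of these sets and 3.96 in the second. In the values as deposited and at this threshold, the models low in leaf were fewer than those low in fiber and more than those low in ovule. These counts were not repeated under other scalings.

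Read support differed widely between members. Low FPKM values are whole multiples of the value of 1 read, so the smallest whole numbers of reads that give a model's values were recovered for 149 members, all 112 of the A-genome and 37 of the 88 D-genome members. The true numbers can be multiples of these. The median was 843 reads over the 4 ovule and fiber libraries, with 62 members at 1000 or more and 13 under 50. A read was worth over 1 FPKM, at the depth of the first fiber library, in 25 of the 149 members (16.8%). That share was 3.83% in the models not taken, 3.73% in all models tested, and 12.7% and 9.59% in the exchanged sets. Of the first 50 places in the ranking, 15 were held by such models.

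Both kinds of model stood in the highest places. The values of Gorai.005G149200 corresponded to 4 and 1 reads in ovule and 3 and 2 reads in fiber, each worth 322 FPKM. Cotton_A_36932 had 4 and 1 reads in ovule and 4 and 2 reads in fiber. In contrast, Gorai.004G235700 rested on 2653 and 2265 reads in ovule, 4088 and 3935 reads in fiber and 22 and 24 reads in leaf. Cotton_A_29157 had 7768 and 6315 reads in ovule, 5795 and 5375 reads in fiber and 42 and 20 reads in leaf. A single read more or less would change the first 2 models greatly and the last 2 hardly at all.

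**Figure D4:**
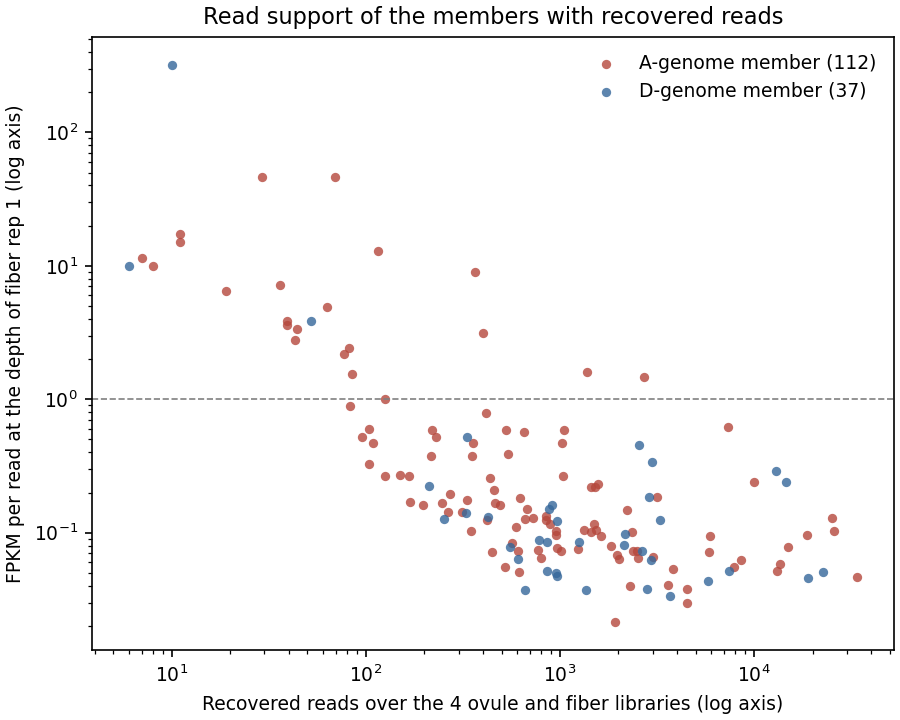
Recovered reads over the 4 ovule and fiber libraries against the FPKM that 1 read is worth, on log axes, for the 149 members with recovered reads, coloured by prefix, with a dashed line at 1 FPKM per read. The point at the upper left is Gorai.005G149200 with 10 reads at 322 FPKM each, and 62 members lie to the right at 1000 reads or more.

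Replicate agreement differed between these classes. The replicates differed by over 1.5-fold in ovule or in fiber in 25 members, of which 17 were among the 25 members with over 1 FPKM per read, 8 were among the 124 at or under it, and none was among the 51 members without recovered reads. The median of the larger replicate ratio was 1.71 in the first class, 1.12 in the second and 1.08 in the third. Cotton_A_22733, the model with the largest ratio of 5.78, had 104 and 18.1 FPKM in fiber, which corresponded to 6 reads and 1 read. It was singled out after its values were seen.

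A leaf value of 0 carried different weight in different members. Reads were recovered for 26 of the 28 members listed at 0 in both leaf libraries, and their median was 86.5 reads over the ovule and fiber libraries. A count of 0 allows up to 3 reads over both leaf libraries together, for counting error only. The ovule and fiber means as measured were both at least 10-fold above that limit in 12 of the 26 members. Both were above it in 23, and at least 1 tissue was at or below it in 3. The lower tissue was a median of 8.62-fold above the limit. Counting error in ovule and fiber was left out, so a mean above the limit does not secure a difference. Among the 23 were Gorai.005G149200 (5 and 5 reads in ovule and fiber), Cotton_A_36932 (5 and 6) and Cotton_A_22733 (4 and 7).

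Most of the firmest of these zeros were not the highest in the ranking. For Cotton_A_22332, in place 132, ovule was 76.3-fold and fiber 86.2-fold above the limit of 3 leaf reads, from 257 and 355 reads. Gorai.007G213400 was 52.5-fold above it in ovule and 105-fold in fiber, and Gorai.010G026800 54.0-fold and 58.8-fold. An exception was Cotton_A_15019, in place 2 of the ranking, which was 31.9-fold and 61.8-fold above it. For Gorai.005G149200, first in the ranking, the same values were 1.42-fold and 1.21-fold, since 3 leaf reads would be worth 674 FPKM.

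The members with fewer than 10 reads were Cotton_A_26487 with 7, Cotton_A_15401 with 8 and Gorai.010G089400 with 6. All 3 were listed at 0 in leaf. Cotton_A_26487 had 13.1 and 30.8 FPKM in ovule and 22.7 and 23.6 FPKM in fiber, Cotton_A_15401 had 11.6 and 27.2 FPKM in ovule and 20.1 and 31.3 FPKM in fiber, and Gorai.010G089400 had 11.6 and 13.6 FPKM in ovule and 30.1 and 10.4 FPKM in fiber. A difference of these models from leaf was not detectable at this depth in at least 1 of the tissues, although limma called all 3 higher than leaf in both (adjusted p from 8.6e-05 to 0.000869).

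To read the pattern in libraries that had not chosen the models, the rule was applied to the 3 libraries numbered 1 alone, and the 200 models so taken were read in the 3 libraries numbered 2. Ovule and fiber were both at least 5-fold above leaf in 172 of them (86.0%), beside 7.59% of all models tested. With the libraries exchanged, it was 191 (95.5%), beside 8.51%. The full rule, threshold included, was met again by 128 and 143 of the models, and the median ranking value fell from 12.2 to 10.1 and from 12.1 to 11.1. The bound on F/O was missed by 43 models when read in the libraries numbered 2 and by 25 when read in those numbered 1. Of the models so taken, 160 and 171 were among the 200 members. The models tested did not have to meet the conditions of the rule, so the shares set beside each other are not matched. With 1 library per tissue these readings have no replicate error, and they describe how models chosen for this ratio repeated between libraries.

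The D-genome members were spread over all 13 chromosome codes. The largest numbers stood on codes 7 (13 members) and 9 (12 members), which also held the most D-genome models, and the smallest on codes 6 and 12 (3 each). As a share of the models that met the conditions, members ran from 1.13% on code 6 to 5.42% on code 3. A single pair of members had adjacent numbers. Gorai.007G366900 had 0.877 and 0.485 FPKM in leaf, 14.4 and 13.0 FPKM in ovule and 26.7 and 20.6 FPKM in fiber. Its neighbour Gorai.007G366800 had 3.64 and 2.28 FPKM in leaf, 27.7 and 33.9 FPKM in ovule and 43.8 and 41.2 FPKM in fiber, so both were higher in fiber than in ovule in every library.

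The models numbered next to a D-genome member, 1 step away and not members themselves, had not been chosen by the rule. There were 174, of which 126 were tested. In OL, 40.5% of them were called higher in ovule, beside 31.5% of all D-genome models tested, and in FL 34.1% were called higher in fiber, beside 25.3%. Both calls were made for 21 of them (16.7%), beside 10.4% of all D-genome models tested. Some neighbours met the conditions of the rule themselves. With those dropped, a choice made after the data were seen, both calls were made for 15 of 106 neighbours (14.2%). Among the models numbered next to a D-genome model that met the conditions and was not taken, dropped in the same way, the share was 6.85%. The median differences of the neighbours were 0.70 in OL and 0.18 in FL, and those of all D-genome models were 0.50 and 0.05. No test was made of these shares, since neighbouring models were read in the same libraries and are not replicates.

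Among these neighbours, chosen after its values were seen, Gorai.009G167000 had 39.1 and 29.2 FPKM in leaf, 386 and 370 FPKM in ovule and 8047 and 8300 FPKM in fiber. The member beside it, Gorai.009G167100, was listed at 0 in leaf and had 8.50 and 8.42 FPKM in ovule and 9.79 and 9.23 FPKM in fiber. The neighbour rose from ovule to fiber while the member was nearly level. Gorai.004G235800, next to the abundant member Gorai.004G235700, had 5.56 and 5.49 FPKM in leaf, 16.0 and 14.8 FPKM in ovule and 63.7 and 67.1 FPKM in fiber, and was also called higher in both.

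**Figure D5:**
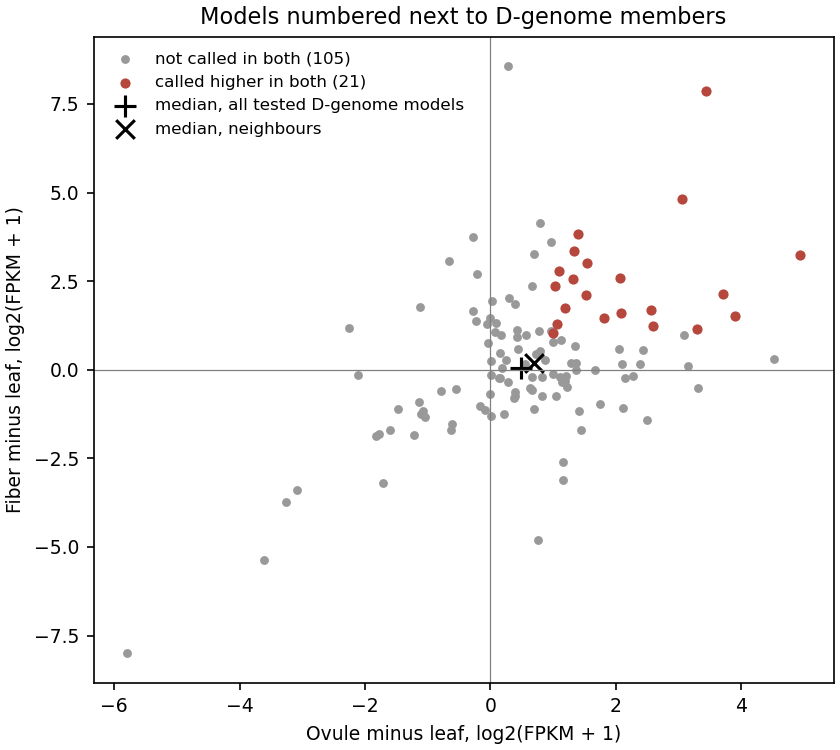
Difference from leaf on the log2(FPKM + 1) scale in ovule (horizontal axis) and fiber (vertical axis) for the 126 tested models numbered next to a D-genome member, with the 21 called higher in both in red. The median of the neighbours (cross, 0.70 and 0.18) lies slightly to the upper right of the median of all tested D-genome models (plus sign, 0.50 and 0.05), and the points extend into all 4 quadrants.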

How the data were processed

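The authors deposited 1 table of FPKM values for 77357 models, with a column per library and no pooled columns. Per the study's methods, strand-specific single-end reads (150 cycles) were mapped with TopHat, uniquely mapped reads were kept and Cufflinks estimated abundance. CASAVA 1.8 is in the submitters' processing notes. No version of TopHat or Cufflinks was given in the sources used here. Unique mapping can take reads from near-identical homoeologs or paralogs. The study names the TM-1 genome as the reference, but the identifiers are not of TM-1 and 0 of them were found in the RefSeq gene table, so no names, sequences or coordinates are given.

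Tissue and replicate came from the sample titles. The members and lists were chosen with earlier results of these data known. limma 3.58.1 in R 4.3.3 was fitted to log2(FPKM + 1), which understates the change of low values, in 1 model of 6 libraries with a variance trend and robust fitting, and was tested on simulated data. Depths relative to the first fiber library, from the steps between low values, were 0.704 and 0.728 (leaf), 0.867 and 0.740 (ovule) and 0.964 (second fiber library). Whole reads were accepted at a relative tolerance of 1e-05 between libraries (at most 0.05 read). Models under 0.005 FPKM per read (458) were set aside.

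Named models were the 10 highest in the ranking, the 5 most abundant, the 3 with F/O nearest 1, the 2 at each end of F/O, the 3 highest in leaf, 3 on each side of the threshold, members with adjacent numbers and members under 10 reads. Members not called, and others so marked, were added after their values were seen. Replicate numbers did not pair the libraries (correlations of deviations from -0.0589 to 0.05). Alternatives were other scalings, addends, filters, tests, bounds of the rule and libraries left out.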

Additional observations from a re-analysis of the deposited data

How the results depend on the processing

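Of 930 values recomputed under alternatives, 146 were counts or shares over the members or their neighbours and 784 were differences of the 28 named models. None of the 784 changed direction, and 7 missed the threshold, all under a per-gene analysis of variance with an unadjusted P under 0.01. The rule chose the members by these contrasts, so a change of direction was hardly possible and nothing is read from this. Of the 146 counts or shares, 19 moved. A count moved if it changed by over 1.5-fold or away from 0. The share of neighbours moved if it left its exact 95% interval (10.6% to 24.3%). That interval treats neighbours as independent, which models read in the same libraries are not. It served only as a mark for sorting and measures no error between libraries. The count called higher than leaf ran from 175 to 199 in OL, where 18.1% to 35.1% of all models were called, and from 179 to 199 in FL, where 19.0% to 29.1% were. In the fits with a replicate block, 195 members were called in OL (31.0% of all models), 197 in FL (25.5%) and 0 in either direction of FO (16.8% higher and 33.3% lower). With at least 50 recovered reads, an alternative chosen after seeing the data, 135 of 136 members were called in OL and 135 in FL. The share of all models under this limit was not computed. The rule used these contrasts, so nothing is read from these counts.

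The balance of fiber and ovule was less stable. The count called higher in fiber than in ovule was 18 (beside 23.2% of all models) after quantile normalization and 28 (beside 22.1%) after median-of-ratios scaling, and 1 was called lower after quantile normalization, beside 23.7%. With 1 library left out it ran from 0 to 3 higher and from 0 to 2 lower, beside 15.6% to 16.7% and 31.3% to 33.2% of all models.

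Membership itself moved with the rule. Of the 200 members, 146 were taken after median-of-ratios scaling, 167 after quantile normalization, 166 with an addend of 0.1, 140 with narrower F/O bounds, 146 with at least 10 recovered reads and between 179 and 192 with 1 library left out. The number listed at 0 in leaf was 17 with a minimum of 10 FPKM, 18 with narrower F/O bounds, and 14 where models over 1 FPKM per read were removed, which was chosen after seeing the data. It ran from 27 to 51 with 1 library left out, and was 51 and 44 without the first and the second leaf library, when 1 leaf library alone had to be at 0. Of the 100 highest, all 100 members, 58 had the A-genome prefix and 49 were higher in fiber; of the 400 highest these were 214 and 236. Recovered reads are lower limits, and depth limits most the members in which 1 read is worth over 1 FPKM.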
